A study of Mus musculus with 140 samples.

Results

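Interferon-stimulated genes were followed as a set of 43 genes among the 34255 genes of the count table, chosen by name: every row whose gene symbol was on the list entered, and all 43 were found. The study compared male wild-type (WT) mice of the strain C57BL6/OlaHsd after cecal ligation and puncture (CLP), an operation in which gut contents leak into the abdomen and cause sepsis, with mice after sham surgery. Mice were sampled at 4, 24 or 72 h after either operation, and healthy mice without surgery were labelled 0 h. Each of these 7 groups held 4 mice, and from each mouse the table held whole kidney and 4 laser-microdissected compartments of the renal cortex: glomeruli, arterioles, post-capillary venules and capillaries around the tubules (peritubular). All 140 libraries were made with Lexogen QuantSeq, a kit that reads the 3′ ends of transcripts, so that a level in CPM (counts scaled to the size of the library) does not scale with transcript length. The labels named no transgene or deletion and gave no age.

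Interferons are secreted by cells that sense microbes. Type I interferons signal through JAK kinases to a complex that includes STAT2 and IRF9 and acts through the interferon-stimulated response element (ISRE), and interferon gamma acts through the gamma-activated site (GAS). The genes they induce fall into transcription factors that pass the signal on, chemokines that attract T cells, sensors of foreign nucleic acid, antiviral effectors, GTPases that attack vacuoles holding microbes, and the machinery of antigen presentation.

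The promoters are shown because they carry the elements through which interferons act. RefSeq windows of the build GRCm38.p6, from 250 bases before to 50 bases after a start of transcription, were on hand for 34 of the 43 genes. Those not matched were Dhx58, Iigp1, Mx1, Mx2, Oas2, Parp14, Rtp4, Usp18 and Zbp1. The letters GAAA NN GAAA (ISRE core, either strand, overlapping matches counted) occurred in 18 of 34 members (52.9%) and in 3.99% of all 27025 genes with a window. The letters TTCNNNGAA (GAS core, which reads the same on both strands) occurred in 11 of 34 members (32.4%) and in 9.55% of all genes. Both occurred in Bst2, Eif2ak2, Gbp7, Igtp, Irgm2 and Oas1a, which was 17.6% of the members against 0.614% of all genes. Neither occurred in 11 members (32.4%), Cxcl9, Irf7, Irf9 and Tap1 among them, against 87.1% of all genes. A match is a description of the letters, not a bound site. The 7 windows below hold the 250 bases before the start of genes that the results turn on, 5′ to 3′ along the gene, with every match in capitals. Isg15 (chr4:156200819-156201068, minus strand) had 3 overlapping ISRE cores, the first starting at base -78 from the start site. Ifit1 (chr19:34640639-34640888, plus strand) had ISRE cores at -104 and -85, Cxcl10 (chr5:92348890-92349139, minus strand) had 1 at -213 and Gbp2 (chr3:142620413-142620662, plus strand) had 1 at -59. Gbp7 (chr3:142530086-142530335, plus strand) had GAS cores at -106 and -87 ahead of an ISRE core at -53. Irf1 (chr11:53769764-53770013, plus strand) had a GAS core at -90 and Irf8 (chr8:120736108-120736357, plus strand) had GAS cores at -171 and -153; RefSeq gave each of these a further start whose window held no match.
Isg15: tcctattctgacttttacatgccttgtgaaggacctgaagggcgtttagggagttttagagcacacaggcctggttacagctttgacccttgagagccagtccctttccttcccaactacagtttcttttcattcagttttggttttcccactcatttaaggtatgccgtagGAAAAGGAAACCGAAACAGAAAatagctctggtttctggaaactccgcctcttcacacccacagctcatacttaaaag
Ifit1: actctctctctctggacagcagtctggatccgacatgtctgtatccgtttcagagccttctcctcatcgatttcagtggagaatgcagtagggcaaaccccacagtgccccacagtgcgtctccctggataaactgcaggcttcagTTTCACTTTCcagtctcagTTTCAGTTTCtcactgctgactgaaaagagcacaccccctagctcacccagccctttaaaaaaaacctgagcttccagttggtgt
Cxcl10: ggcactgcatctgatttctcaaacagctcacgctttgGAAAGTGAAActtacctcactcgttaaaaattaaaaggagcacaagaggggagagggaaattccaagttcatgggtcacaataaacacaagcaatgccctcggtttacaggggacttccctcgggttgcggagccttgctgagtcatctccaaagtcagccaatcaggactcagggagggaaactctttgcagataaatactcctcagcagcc
Gbp2: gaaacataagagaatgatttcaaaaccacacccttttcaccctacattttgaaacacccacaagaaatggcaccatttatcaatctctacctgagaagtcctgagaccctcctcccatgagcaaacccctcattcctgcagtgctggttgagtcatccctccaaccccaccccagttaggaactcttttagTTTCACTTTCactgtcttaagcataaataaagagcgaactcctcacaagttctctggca
Gbp7: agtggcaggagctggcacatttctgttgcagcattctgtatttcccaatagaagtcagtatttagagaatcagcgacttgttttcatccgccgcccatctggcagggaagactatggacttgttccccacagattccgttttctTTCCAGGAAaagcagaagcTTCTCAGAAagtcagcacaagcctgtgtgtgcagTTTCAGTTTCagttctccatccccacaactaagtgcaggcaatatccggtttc
Irf1: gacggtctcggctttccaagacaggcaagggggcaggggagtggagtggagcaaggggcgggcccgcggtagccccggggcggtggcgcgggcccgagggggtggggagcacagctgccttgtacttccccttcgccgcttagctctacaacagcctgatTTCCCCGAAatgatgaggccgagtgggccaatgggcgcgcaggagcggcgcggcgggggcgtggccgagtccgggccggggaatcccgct
Irf8: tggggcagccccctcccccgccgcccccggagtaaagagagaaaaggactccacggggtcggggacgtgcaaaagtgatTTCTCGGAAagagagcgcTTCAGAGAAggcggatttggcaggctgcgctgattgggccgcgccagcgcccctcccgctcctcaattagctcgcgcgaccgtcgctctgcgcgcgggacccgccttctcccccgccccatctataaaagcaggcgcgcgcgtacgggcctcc

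**Figure D1:**
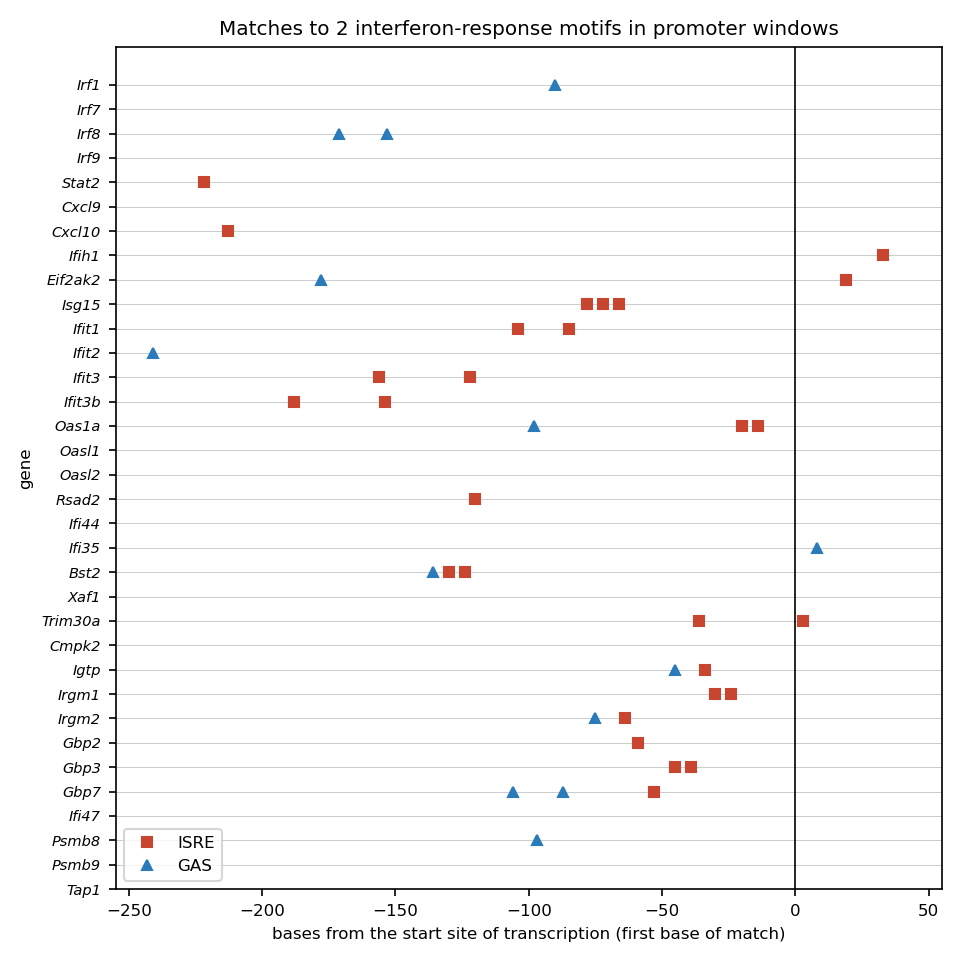
Start of each ISRE or GAS match (x axis, bases from the start site of transcription) for the 34 genes with a promoter window (y axis, by role). The windows ran from 250 bases before to 50 bases after the start, so that most of each window lies before it and matches further away were not searched. Most ISRE matches of the antiviral and GTPase genes lie before the start, while Ifih1, Eif2ak2, Ifi35 and Trim30a have 1 match each after it.

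Library totals ran from 4242450 to 18328700 counts. The spread between mice was far smaller in whole kidney, with a biological coefficient of variation of 0.241, than in glomeruli (1.40), venules (1.58), arterioles (1.92) and peritubular capillaries (1.94). Podocyte markers summed to 7974 to 9796 CPM in healthy glomeruli against 189 to 214 in healthy whole kidney, and smooth muscle markers to 18012 to 37901 CPM in healthy arterioles against 244 to 307. Endothelial markers were not clearly raised in peritubular capillaries (321 to 1460 CPM against 491 to 559), where proximal tubule markers reached 63281 to 114568 CPM against 38517 to 39892 in whole kidney. The microdissected libraries of 24 and 72 h detected fewer genes than those of 0 and 4 h; in arterioles the ranges were 6534 to 9621 and 11339 to 13758. In simulated counts, the test recovered 68 of 100 genes changed 2-fold and 95 of 100 changed 4-fold in whole kidney at 4 h, but 0 of 99 and 4 of 99 in glomeruli.

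In healthy whole kidney the member with the highest level was Rsad2, which encodes the antiviral enzyme viperin, at 83.5 ± 26.8 CPM (SD, n = 4). Iigp1 (35.6 ± 5.004 CPM), Ifi44 (35.0 ± 6.39 CPM), Irf8 (29.0 ± 1.05 CPM) and Irf1 (22.6 ± 5.49 CPM) followed, and those neighbours did not differ beyond their spread. Mx1 (0.864 CPM), Oas1a (0.749 CPM) and Oas2 (0.586 CPM) were the lowest. Rsad2 was also the highest member in healthy glomeruli, arterioles and peritubular capillaries, at means of 193, 180 and 85.2 CPM, while Iigp1 was the highest in venules at 110 CPM. Between the 4 healthy compartments, 2 members differed from the mean of the other compartments by edgeR's quasi-likelihood test with the mouse as a block: Xaf1 was higher in arterioles (log2 fold change 8.18 ± 2.39 SE, adjusted p = 0.0203), where 4.93% of all genes were higher, and Ifit2 was higher in glomeruli (6.88 ± 2.09 SE, adjusted p = 0.042), where 2.8% were.

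The mean level of the set was above sham in every septic kidney at 4 h and overlapped with sham at 72 h. The mean log2 CPM over the 43 genes was 3.15 to 4.01 in the 4 CLP kidneys at 4 h against 2.51 to 2.82 in the sham kidneys. In glomeruli it was 4.24 to 5.27 against 2.49 to 3.56, and in peritubular capillaries 0.75 to 2.23 against 0.11 to 0.55. None of these 3 pairs of groups overlapped. In arterioles and venules the lowest CLP library at 4 h lay within the sham range, by a small margin in venules (2.46 against a highest sham value of 2.46). At 72 h the whole kidneys were at 2.06 to 2.76 after CLP and at 2.41 to 2.75 after sham.

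**Figure D2:**
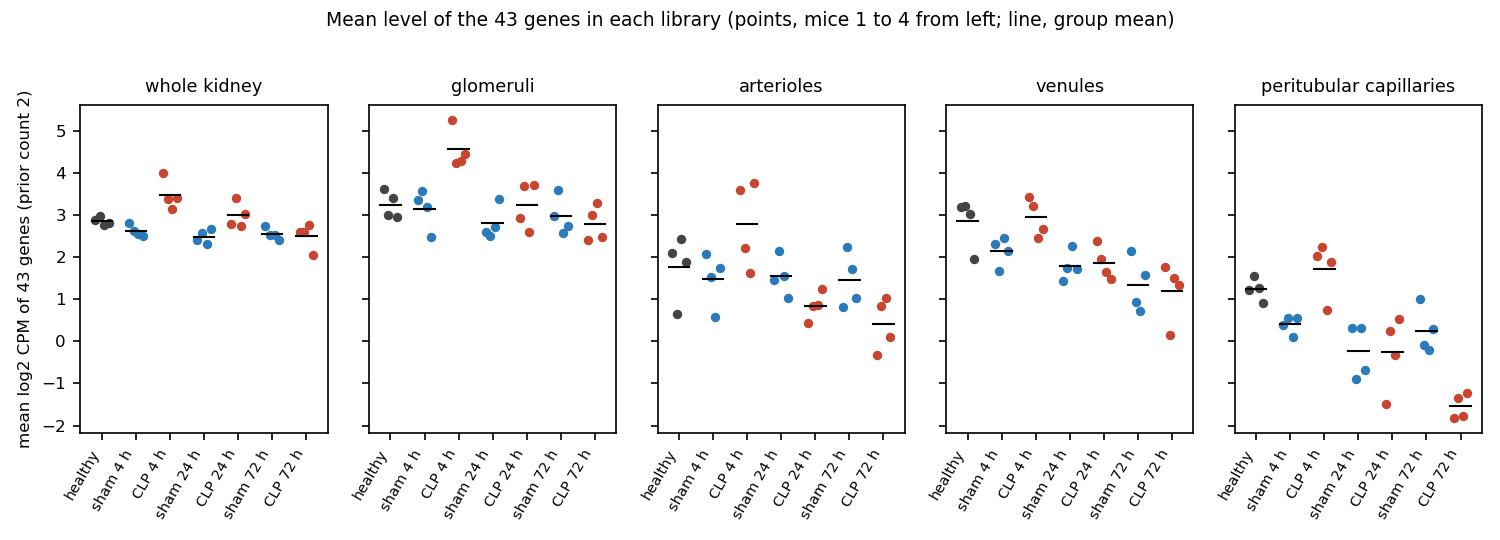
Mean log2 CPM of the 43 genes (y axis, prior count 2) in each library by group (x axis) and compartment; points are mice 1 to 4 from the left and lines are group means. The 4 CLP values at 4 h lie above the 4 sham values in whole kidney, glomeruli and peritubular capillaries, and the CLP group of peritubular capillaries at 72 h has the lowest mean of all groups.

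In whole kidney at 4 h, 14 of the 41 members with enough counts to test (34.1%) were higher after CLP than after sham by edgeR's quasi-likelihood test at an adjusted p under 0.05, and 0 were lower. Over all 14936 genes tested, 1.69% were higher and 0.556% were lower. The members' median log2 fold change was 0.91, against 0.00 for all genes, and 39 of 41 were above 0. In 20 of the 41 members every CLP kidney exceeded every sham kidney, which held for 4.86% of all genes. By role, the higher members were both chemokines, 4 of 5 transcription factors, 2 of 8 GTPases, 5 of 19 tested antiviral effectors, 1 of 3 antigen presentation genes and 0 of 4 sensors.

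Cxcl10 had the largest fold change of all members tested, ahead of Oasl1 and the other chemokine, Cxcl9. Cxcl10, a ligand of CXCR3 on T and NK cells, was at 47.0, 20.2, 15.8 and 15.7 CPM in the 4 CLP kidneys and at 2.17, 1.69, 1.49 and 1.52 CPM in the sham kidneys. Every CLP value was far above every sham value, with CLP mouse 1 highest, and Cxcl10 rose by a log2 fold change of 3.83 ± 0.58 (SE, adjusted p = 0.000167, edgeR). Healthy kidneys averaged 5.26 CPM, above the sham mean of 1.72 CPM. Cxcl9, a second CXCR3 ligand that is induced mainly by interferon gamma, was at 16.2, 13.5, 9.39 and 8.40 CPM against 3.69, 1.58, 3.10 and 2.77 CPM. Its groups did not overlap either, and it rose by 2.09 ± 0.42 (adjusted p = 0.00263, edgeR).

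The 4 transcription factors that rose had log2 fold changes from 0.86 to 1.03. Irf8, a factor of macrophages and dendritic cells, was at 51.7, 44.8, 43.1 and 34.2 CPM after CLP against 19.1, 22.9, 28.7 and 22.1 CPM (log2 fold change 0.91 ± 0.16, adjusted p = 0.000721, edgeR). Irf9, the DNA-binding part of the type I interferon complex, was at 38.7, 37.7, 37.9 and 27.97 CPM against 20.6, 20.5, 20.9 and 16.2 CPM (0.86 ± 0.16, adjusted p = 0.000724). In both genes all CLP kidneys were above all sham kidneys, and in Irf9 mouse 4 was the lowest of each group. Irf1, which responds to interferon gamma and to NF-kB, was at 68.9, 36.8, 35.6 and 24.9 CPM against 20.4, 23.3, 17.8 and 19.6 CPM (1.03 ± 0.22, adjusted p = 0.00418, edgeR). Its groups did not overlap, although CLP mouse 4 was close to the highest sham mouse. Stat2, the partner of IRF9, rose from a mean of 9.08 to 17.1 CPM (0.91 ± 0.21, adjusted p = 0.0139, edgeR). Irf7, which amplifies type I interferon production, was at 19.3, 19.2, 11.9 and 10.3 CPM against 11.6, 7.16, 3.97 and 7.59 CPM; CLP mouse 4 lay inside the sham range and the change did not pass (0.99 ± 0.39, adjusted p = 0.29).

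Among the antiviral effectors, Ifit1, which binds foreign RNA caps, was at 57.6, 14.1, 16.1 and 32.1 CPM after CLP against 12.4, 9.69, 9.42 and 5.62 CPM. The groups did not overlap, but mice 2 and 3 were only just above the highest sham mouse. Ifit1 rose by 1.69 ± 0.36 (adjusted p = 0.00553, edgeR). Oasl1, a relative of the oligoadenylate synthetases, had the highest fold change of the class, with 10.8, 7.42, 5.67 and 5.30 CPM against 2.61, 2.11, 1.49 and 0.179 CPM (2.20 ± 0.51, adjusted p = 0.013). The lowest passing member of the class was Rtp4, which encodes a chaperone of membrane receptors, with 25.3, 24.3, 16.04 and 18.9 CPM against 10.4, 11.5, 9.29 and 7.59 CPM (1.12 ± 0.25, adjusted p = 0.00807). Both genes were higher in every CLP kidney than in any sham kidney. Mx2, a dynamin-like GTPase that the GENCODE annotation lists as a polymorphic pseudogene, rose from 1.21 to 4.11 CPM (1.74 ± 0.44, adjusted p = 0.0221), and Parp14, an ADP-ribosyltransferase, from 25.8 to 60.3 CPM (1.22 ± 0.28, adjusted p = 0.0155, edgeR).

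Isg15, which encodes a ubiquitin-like modifier, did not pass at 4 h. It was at 24.9, 3.55, 9.29 and 11.2 CPM after CLP against 6.30, 8.85, 5.08 and 4.999 CPM (0.95 ± 0.41, adjusted p = 0.361, edgeR). CLP mouse 2 was below every sham kidney and mouse 1 was far above the rest. The log2 fold changes of the other antiviral members that did not pass were 1.41 for Xaf1, 1.25 for Usp18, the enzyme that removes ISG15 from proteins, 0.76 for Trim30a, 0.71 for Ifit3, 0.68 for Oasl2, 0.67 for Rsad2, 0.64 for Oas2, 0.60 for Ifit3b, 0.42 for Ifi35, 0.37 for Bst2, 0.22 for Ifit2, 0.16 for Ifi44 and -0.34 for Cmpk2, the lowest of all members. Mx1 and Oas1a had too few counts to test; Mx1 was at 1.71, 0.538, 0 and 0.947 CPM after CLP and at 0.434, 0.527, 0 and 0.179 CPM after sham.

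Of the GTPases, Iigp1, which disrupts vacuoles that hold microbes, was at 116, 75.7, 68.5 and 71.9 CPM after CLP against 39.1, 19.6, 20.6 and 34.1 CPM. No CLP kidney was near the sham range, and Iigp1 rose by 1.55 ± 0.31 (adjusted p = 0.00405, edgeR). Gbp2, a guanylate-binding protein that coats such vacuoles, was at 30.6, 9.68, 11.9 and 10.6 CPM against 6.63, 4.42, 5.82 and 6.78 CPM (1.40 ± 0.34, adjusted p = 0.0157). Its groups did not overlap, and CLP mouse 1 had more than any other mouse. The log2 fold changes of Gbp3, Ifi47, Irgm1, Gbp7, Irgm2 and Igtp were 1.26, 1.16, 0.94, 0.56, 0.41 and 0.21, none of which passed. Igtp and Irgm2 overlap on the same strand of chromosome 11 (58199556 to 58207591 and 58199618 to 58222782 in the GENCODE annotation), so that their counts may be shared, and the same holds for near-identical copies such as Ifit3 and Ifit3b.

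Tap1, a subunit of the pump that loads peptides for MHC class I, was at 18.6, 13.5, 12.2 and 11.8 CPM after CLP against 5.97, 5.27, 6.20 and 8.12 CPM and rose by 1.13 ± 0.28 (adjusted p = 0.0197, edgeR). All CLP kidneys exceeded all sham kidneys. The immunoproteasome subunits Psmb8 and Psmb9 had log2 fold changes of 0.13 (adjusted p = 0.982) and -0.05 (adjusted p = 0.995). The sensors had values of 1.64 for Dhx58 (adjusted p = 0.0555), 0.79 for Zbp1, 0.42 for Ifih1 and 0.04 for Eif2ak2 (PKR).

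**Figure D3:**
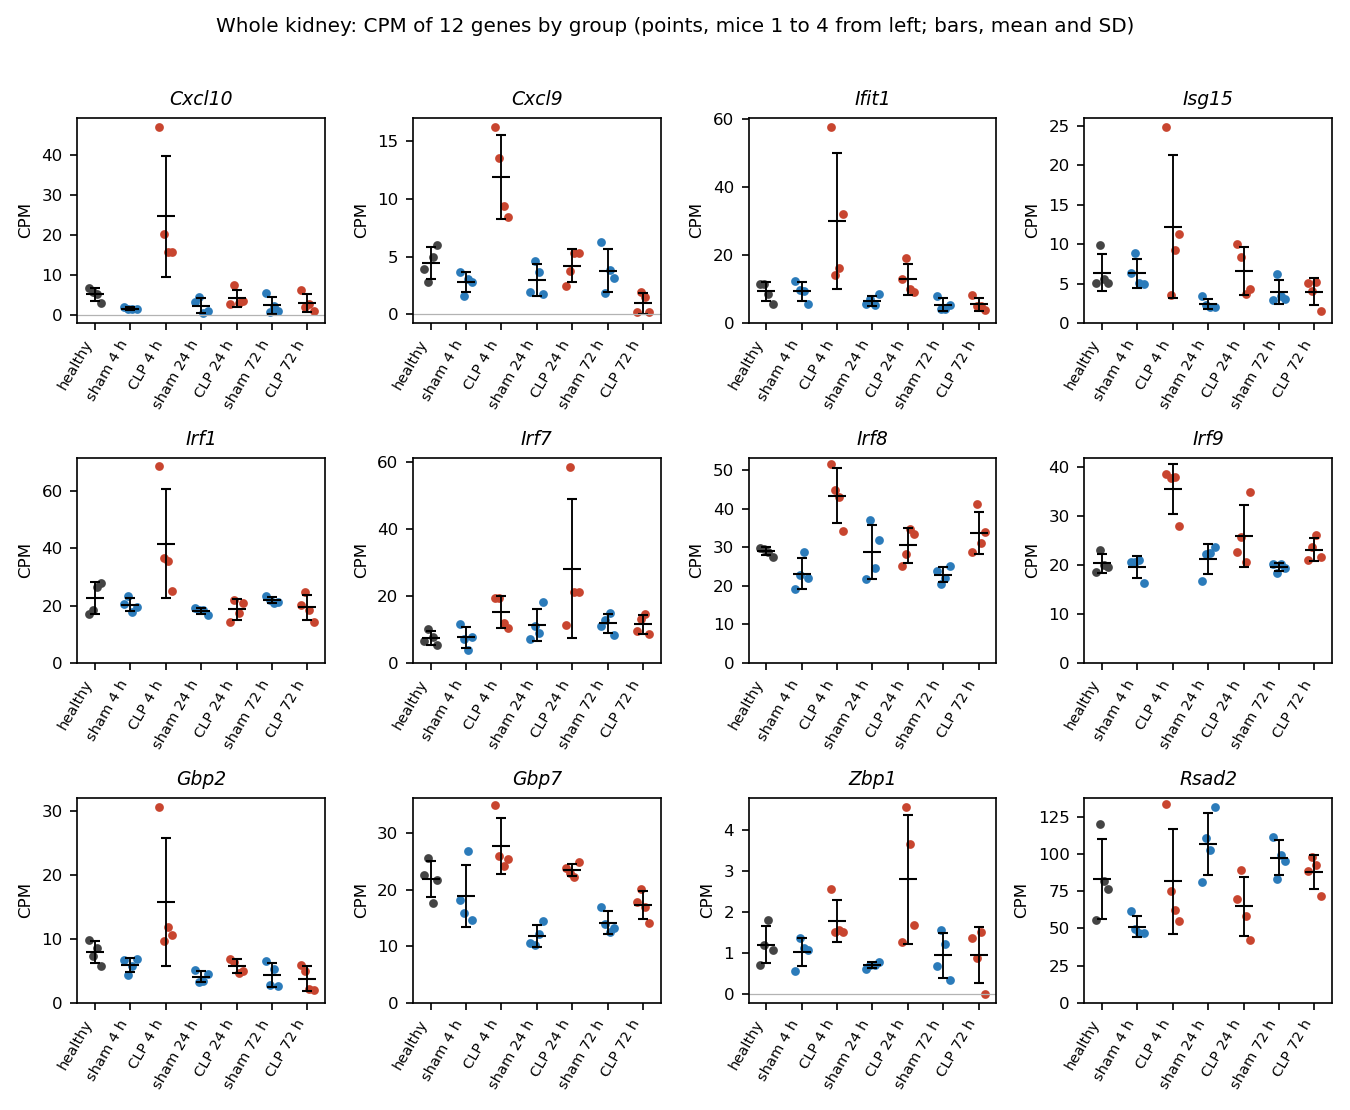
CPM (y axis) of 12 members in whole kidney by group (x axis); points are mice 1 to 4 from the left, bars show mean and SD. Cxcl10 separates the CLP group at 4 h most clearly, with 15.7 CPM or more in every CLP kidney, while Gbp7 and Zbp1 separate it at 24 h and Rsad2 is lower after CLP than after sham at 24 h in the group means.

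A single animal carried a large share of the level at 4 h. CLP mouse 1 had the highest CPM of its group in 36 of 43 members, against 3, 0 and 4 for mice 2, 3 and 4. Without it, 6 members were called: Cxcl10, Cxcl9, Iigp1, Irf8, Irf9 and Rtp4, and these 6 were called under every other setting tried. The adjusted p without it was up to 0.276 for the rest (Gbp2, Ifit1, Irf1, Mx2, Oasl1, Parp14, Stat2 and Tap1), and the log2 fold changes of Gbp2 and Irf1 became 0.85 and 0.66. Leaving out 1 sham mouse or CLP mouse 2 ended the call of Mx2 (sham mice 2, 3 and 4, CLP mouse 2), Tap1 (sham 1, 2 and 3), Gbp2 (sham 2 and 3), Parp14 (sham 1 and 3), Stat2 (sham 2 and 4) and Oasl1 (sham 3). In whole kidney, 7 of 8 tested neutrophil markers were also higher after CLP at 4 h, and the 10 markers summed to 94.5 to 172 CPM against 8.69 to 25.9 CPM. Of 10 macrophage markers 0 were called (sums 166 to 208 CPM against 154 to 186), and of the T and NK cell markers 0 of 6 tested were called (sums 5.23 to 5.75 CPM against 4.11 to 7.71). The part of these cells in the members' changes was not tested. In bulk RNA, more cells of a type and more RNA per cell cannot be told apart.

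At 24 h, 3 of 41 members were higher in whole kidney after CLP (7.32%, against 3.04% of all genes) and 0 were lower (2.24% of all genes). The median log2 fold change was 0.47, against 0.02 for all genes, and 9 members did not overlap between groups, which held for 4.12% of all genes. Gbp7 was at 23.9, 23.0, 22.2 and 24.9 CPM after CLP against 10.6, 10.2, 12.2 and 14.5 CPM, with no overlap and little spread, and rose by 0.98 ± 0.18 (adjusted p = 0.000522, edgeR). Zbp1, a sensor of Z-form nucleic acid that can trigger cell death, was at 1.27, 4.58, 3.67 and 1.69 CPM against 0.602, 0.695, 0.708 and 0.769 CPM (1.99 ± 0.58, adjusted p = 0.035). Irf7 was at 11.4, 58.4, 21.2 and 21.2 CPM against 7.11, 10.9, 8.996 and 18.1 CPM; it passed (1.32 ± 0.38, adjusted p = 0.0397, edgeR) although CLP mouse 1 lay inside the sham range. Gbp7 kept its call whichever mouse was left out. Zbp1 lost it without any 1 sham mouse or without CLP mouse 2 or 3 (adjusted p up to 0.163), and Irf7 without sham mouse 1, 2 or 3 or CLP mouse 2 (up to 0.326). Irf7 also lost its call with no filter on low counts. CLP mouse 2 had the highest CPM of its group in 24 of 43 members.

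Isg15 missed the threshold at 24 h, with 10.04, 8.33, 3.67 and 4.35 CPM after CLP against 3.37, 2.32, 2.02 and 2.05 CPM (1.45 ± 0.45, adjusted p = 0.0552, edgeR). Its groups did not overlap. Of the members called at 4 h, none passed at 24 h: the log2 fold changes were 1.31 for Mx2, 1.10 for Oasl1, 0.97 for Ifit1, 0.85 for Cxcl10, 0.08 for Irf8 and 0.04 for Irf1. The difference of Cxcl10's change between 24 and 4 h, -2.98 ± 0.80, missed the threshold (adjusted p = 0.053, edgeR), as did that of Irf8 (-0.83 ± 0.23, adjusted p = 0.0583). Rsad2 went the other way, with 69.7, 89.3, 58.2 and 42.4 CPM after CLP against 81.6, 111, 103 and 132 CPM at 24 h, where the groups overlapped (-0.71 ± 0.24, adjusted p = 0.0888). At 4 h it had been at 133, 75.5, 62.4 and 55.3 CPM against 61.5, 49.5, 47.1 and 46.9 CPM. The difference between these changes, at 24 h minus at 4 h, was -1.39 ± 0.34 for Rsad2 (adjusted p = 0.0293, edgeR). In the main fit it was the 1 member of 41 whose effect differed between these times. Of all genes, 1.0% differed in that direction and 0.837% in the other. The call of Rsad2 was lost with no filter on low counts (adjusted p = 0.0687, edgeR), and no mouse was left out for this comparison.

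At 72 h, 0 of 41 members were higher (1.74% of all genes) and 1 was lower (2.44%, against 2.15% of all genes), and the median log2 fold change was -0.03. The lower gene was Cxcl9, at 0.196, 1.89, 1.51 and 0.155 CPM after CLP against 6.29, 1.87, 3.83 and 3.12 CPM (-1.92 ± 0.50, adjusted p = 0.0207, edgeR). CLP mouse 2 was level with sham mouse 2, and the call was lost without CLP mouse 1, CLP mouse 4 or sham mouse 1, with an adjusted p of up to 0.119. Irf8 was at 28.9, 41.3, 31.1 and 33.9 CPM against 23.8, 20.6, 22.1 and 25.3 CPM, without overlap, and missed the threshold (0.56 ± 0.17, adjusted p = 0.0521, edgeR). Every CLP kidney exceeded every sham kidney in 2 of the 41 members (4.88%) and in 704 of all 14936 genes. Macrophage markers summed to 472 to 692 CPM after CLP at 72 h against 180 to 232 CPM, and neutrophil markers to 243 to 474 CPM against 3.01 to 6.29 CPM. No member's effect differed between 72 and 24 h by edgeR's test (10 at an unadjusted p under 0.05, or 24.4%, against 8.28% of all genes), where 0.107% of all genes differed upward and 0.402% downward.

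Sham surgery moved no member at 4 h relative to healthy kidneys by edgeR's test, where 0.777% of all genes were higher and 0.161% lower. At an unadjusted p under 0.05 there were 6 members (14.6%, against 9.13% of all genes). The mean log2 CPM difference of sham minus healthy ran from -1.46 for Cxcl10 to 1.17 for Oas2. In the compartments and the sums 0 members passed either. Of all genes 0.00686% were higher in glomeruli, 0.0356% in the sums and 0.0% elsewhere. At an unadjusted p under 0.05 there were 2 members in glomeruli, 1 in arterioles and 2 in venules. There were 3 in peritubular capillaries and 4 in the sums. These were 4.88%, 2.7%, 5.26%, 9.68% and 9.3% of the members tested, against 4.85%, 5.48%, 4.76%, 2.95% and 4.92% of all genes. Every sham kidney was below every healthy kidney in 2 of 41 tested members (375 of 14936 genes). In venules this held for 4 of 38 (188 of 13530 genes): Cxcl10, Ifi35, Iigp1 and Rsad2. In the sums it held for 3 of 43 (259 of 16834 genes). It held for 1 member in glomeruli (220 of 14586 genes), 1 in peritubular capillaries (172 of 11772 genes) and 0 in arterioles (124 of 12183 genes). The reverse held for 1 member, Ifit3 in venules (191 of 13530 genes).

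**Figure D4:**
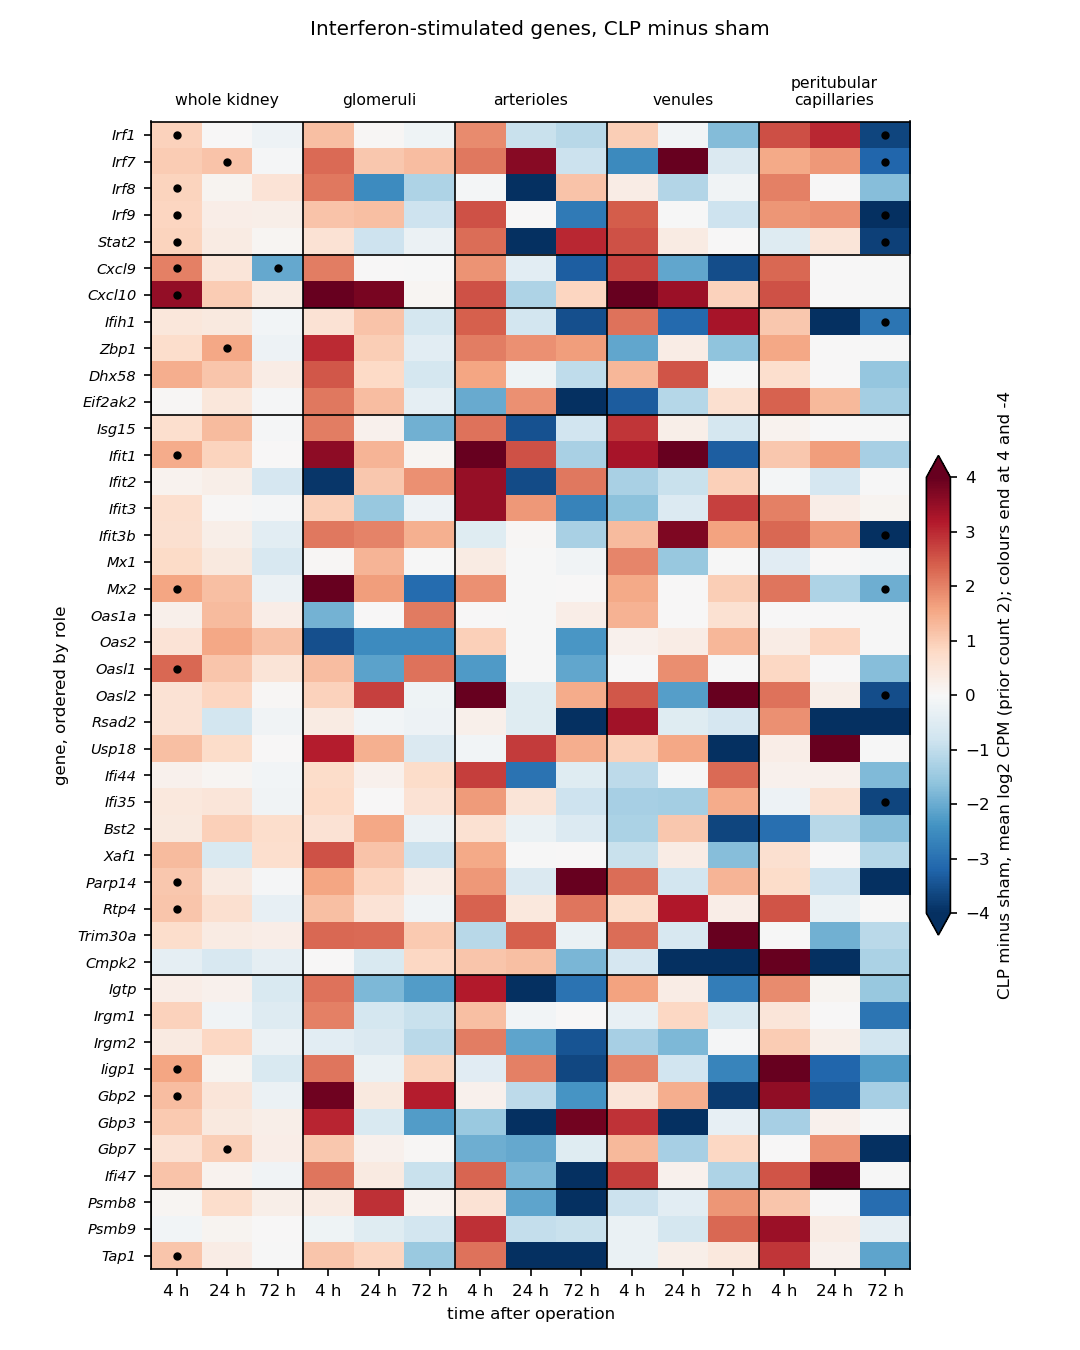
CLP minus sham difference in mean log2 CPM (colour, prior count 2, ends at 4 and -4) for all 43 genes (y axis, by role) at 3 times in 5 compartments (x axis); dots mark an adjusted p under 0.05. The columns of 4 h are mostly red, and the last column, peritubular capillaries at 72 h, is mostly blue with 9 dots.

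In the compartments at 4 h, 0 members passed edgeR's test in any of the 4. The median difference in mean log2 CPM over the 43 members reached 1.73 for arterioles, 1.23 for glomeruli, 1.11 for peritubular capillaries and 1.00 for venules, against 0.77 for whole kidney. Single members differed from this order: that of Oasl1 was 2.30 in whole kidney, 1.23 in glomeruli and -2.27 in arterioles. The difference was above 0 in 38 of 43 members in glomeruli, 35 in peritubular capillaries, 33 in arterioles and 27 in venules, against 41 in whole kidney. In whole kidney and all 4 compartments alike it was above 0 for 16 members: Cxcl10, Cxcl9, Dhx58, Gbp2, Ifi47, Ifih1, Ifit1, Igtp, Irf1, Irf9, Isg15, Mx2, Oasl2, Parp14, Rsad2 and Rtp4. Few genes of any kind passed: 0.0891% of all genes were higher in glomeruli, 0.00821% in arterioles and 0.0% in venules and in peritubular capillaries.

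In glomeruli, 6 members (14.6%, against 5.29% of all genes) had an unadjusted p under 0.05 and 36 of the 41 tested had a fold change above 0. The median log2 fold change of these 41 was 1.03, against -0.02 for all genes. In 9 members all CLP glomeruli exceeded all sham glomeruli, which held for 3.02% of all genes: Isg15, Ifit1, Irf1, Irf8, Mx2, Cxcl10, Iigp1, Gbp2 and Parp14. Cxcl10 was at 220, 73.8, 42.8 and 36.0 CPM after CLP against 3.06, 0.0783, 2.20 and 0.346 CPM. Ifit1 was at 124, 57.7, 138 and 139 CPM against 4.08, 12.1, 8.54 and 14.6 CPM. Both genes were separated by wide gaps, yet neither passed edgeR's test (log2 fold changes 6.03 ± 2.45 and 3.54 ± 1.23, both with an adjusted p of 0.887). Iigp1 was at 321, 170, 188 and 232 CPM against 49.3, 30.0, 75.5 and 57.5 CPM (2.10 ± 0.61, adjusted p = 0.321). Irf8 was at 88.1, 175, 207 and 188 CPM against 49.4, 82.7, 14.05 and 28.5 CPM, where CLP mouse 1 was just above sham mouse 2. Isg15 was at 85.9, 43.9, 22.8 and 32.3 CPM against 16.3, 7.83, 7.02 and 10.1 CPM, in contrast to its overlap in whole kidney. DESeq2 called Ifit1 and Iigp1 in glomeruli, and 2.01% of all genes. Ifit2 had the lowest difference in mean log2 CPM, -3.90. Neutrophil markers summed to 1362 to 2729 CPM in CLP glomeruli against 45.5 to 228 CPM in sham glomeruli, and their part in the members' values was not tested.

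**Figure D5:**
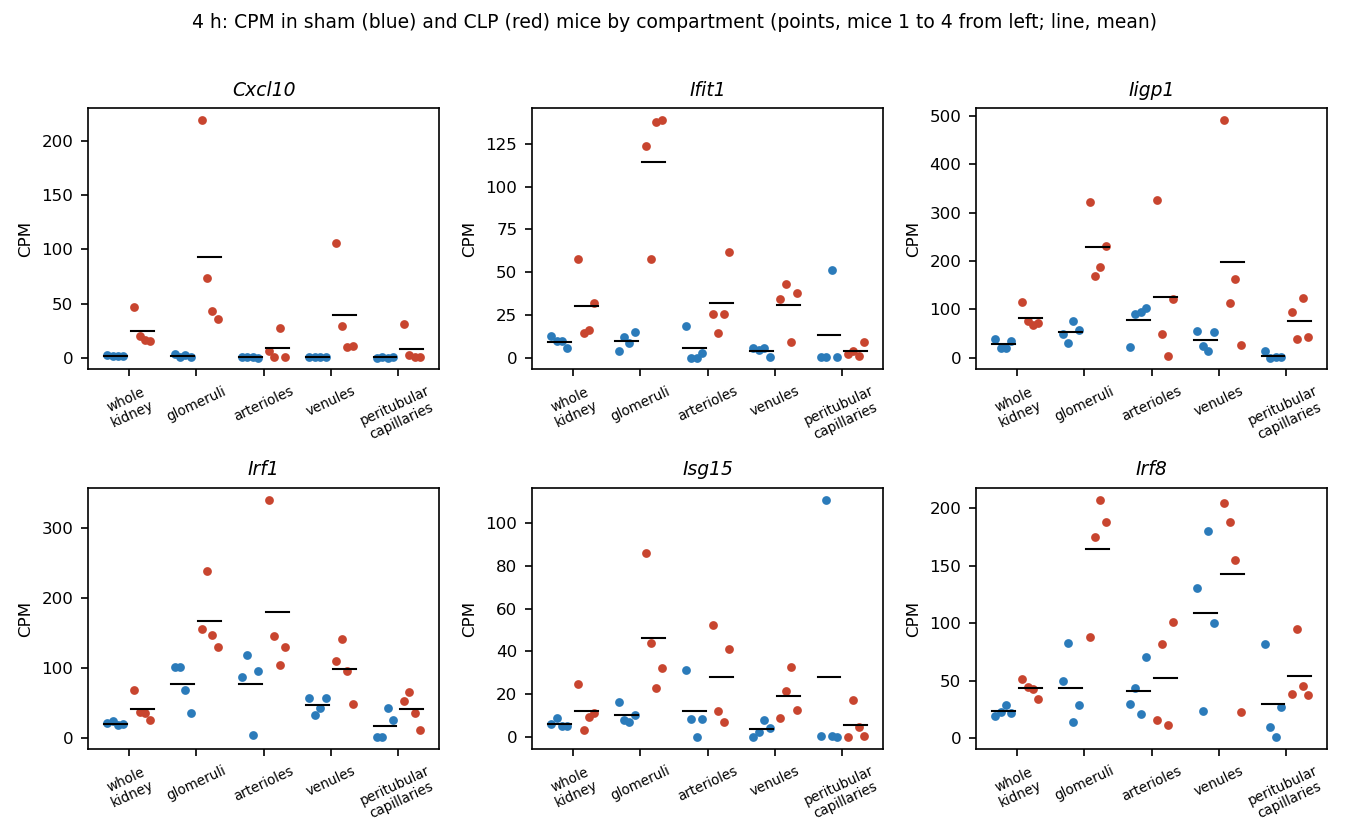
CPM (y axis) of 6 members at 4 h in each compartment (x axis) after sham (blue) and CLP (red); each point is a mouse and lines are group means. Cxcl10 and Ifit1 separate fully in glomeruli and venules, with 36.0 CPM or more of Cxcl10 in every CLP glomerular library.

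In post-capillary venules, 6 of 38 tested members did not overlap (1.84% of all genes): Isg15, Ifit1, Stat2, Oasl2, Rsad2 and Cxcl10. In all 6, the sham mean was below the healthy mean. CLP and healthy means were close for Rsad2 (92.3 and 96.3 CPM), Oasl2 (41.7 and 45.1), Isg15 (19.03 and 17.2) and Cxcl10 (38.96 and 31.3). The CLP mean was the higher for Ifit1 (30.96 and 9.82 CPM) and Stat2 (35.1 and 9.696 CPM). CLP was not tested against healthy venules. Cxcl10 was at 106, 29.2, 9.67 and 10.9 CPM after CLP against 0.353, 0.178, 0.312 and 0.404 CPM (6.90 ± 2.78, adjusted p = 0.851, edgeR). Rsad2 was at 163, 57.3, 34.7 and 114 CPM against 8.70, 15.3, 27.3 and 0.673 CPM (2.83 ± 0.87, adjusted p = 0.851), while in glomeruli its mean log2 CPM differed by 0.32 only. Here 4 members (10.5%, against 5.68% of all genes) had an unadjusted p under 0.05, among them Eif2ak2 with a log2 fold change of -5.30. DESeq2 called Rsad2 and Cxcl10, and 2.5% of all genes. Neutrophil markers summed to 139 to 512 CPM against 1.66 to 45.0 CPM. In arterioles, 2 of 37 tested members did not overlap (1.86% of all genes): Irf9 at 94.2, 98.7, 82.5 and 37.7 CPM against 23.0, 29.3, 1.52 and 21.0 CPM, and Oasl2 at 189, 37.3, 32.2 and 23.6 CPM against 0.388, 0.698, 4.39 and 21.9 CPM. There, 1 member reached an unadjusted p under 0.05 (2.7%, against 3.43% of all genes) and 0 were called by DESeq2 (1.11% of all genes). In peritubular capillaries, 3 of 31 tested members did not overlap (2.14% of all genes): Iigp1 at 94.8, 38.2, 123 and 43.5 CPM against 13.5, 0.390, 0.612 and 1.20 CPM, Gbp2 at 23.8, 3.46, 2.75 and 10.5 CPM against 0.414, 0.195, 0.490 and 0.598 CPM, and Cmpk2. There Isg15 was at 0.117, 17.5, 4.87 and 0.475 CPM after CLP against 0.414, 111, 0.367 and 0.120 CPM, so that 1 sham library held nearly all of it. Here too 1 member reached an unadjusted p under 0.05 (3.23%, against 3.26% of all genes), with 0 called by DESeq2 (0.739% of all genes).

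The genes followed in every compartment at 4 h differed as follows in mean log2 CPM, CLP minus sham. Cxcl9 differed by 2.03 in glomeruli, 1.79 in arterioles, 2.71 in venules and 2.31 in peritubular capillaries. Irf1 differed by 1.21, 1.89, 1.00 and 2.57 in the same order, Irf7 by 2.26, 2.12, -2.54 and 1.51, and Irf8 by 2.12, -0.08, 0.31 and 2.02. Irf7 thus had the opposite sign in venules, where sham libraries held 28.2, 21.0, 14.9 and 47.0 CPM and CLP libraries 45.4, 1.01, 0 and 31.3 CPM. Igtp differed by 2.16, 3.18, 1.62 and 1.88, and Psmb8 by 0.34, 0.57, -0.86 and 1.11. No member's CLP effect differed between the 4 compartments at 4, 24 or 72 h by edgeR's test with the mouse as a block. Of all genes 0.021%, 0.161% and 1.48% differed at an adjusted p under 0.05. At an unadjusted p under 0.05 there were 2, 1 and 3 members, against 830 of 14272, 686 of 13635 and 1643 of 13475 genes.

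When the 4 microdissected libraries of each mouse were summed, 43 members could be tested at 4 h, 0 passed (0.0832% of all genes were higher) and 9 had an unadjusted p under 0.05 (20.9%, against 5.49% of all genes). The median log2 fold change was 0.93 against -0.01 for all genes. In 10 members the groups did not overlap (2.93% of all genes): Ifit1, Irf1, Irf8, Irf9, Stat2, Mx2, Cxcl10, Iigp1, Rtp4 and Ifi47. Cxcl10 was at 84.1, 26.2, 19.9 and 9.31 CPM after CLP against 0.704, 0.169, 0.666 and 0.281 CPM (6.25 ± 1.97, adjusted p = 0.539, edgeR). Iigp1 was at 273, 88.9, 108 and 93.8 CPM against 32.9, 32.8, 36.0 and 48.1 CPM and came closest to the threshold (1.91 ± 0.44, adjusted p = 0.0716). Both were highest in CLP mouse 1, which also led in whole kidney. DESeq2 called Cxcl10, Iigp1 and Ifi47, and 1.75% of all genes.

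At 24 h, 0 members passed edgeR's test in any microdissected compartment or in the sums. Of all genes 0.096% were higher and 0.0411% lower in glomeruli, 0.0% and 0.0164% in arterioles, 0.0222% and 0.0591% in venules, 0.034% and 0.017% in peritubular capillaries, and 0.238% and 0.303% in the sums. At an unadjusted p under 0.05 there were 2 members in glomeruli, 7 in arterioles, 7 in venules, 6 in peritubular capillaries and 3 in the sums. These were 4.88%, 18.9%, 18.4%, 19.4% and 6.98% of the members tested, against 12.4%, 15.5%, 10.2%, 19.3% and 12.9% of all genes. DESeq2 called 1, 5, 5, 7 and 2 members in the same order, and 6.67%, 12.3%, 6.46%, 15.6% and 7.07% of all genes. Irf7 stood out in venules, with 35.3, 25.1, 19.7 and 25.4 CPM after CLP against 0, 0, 0.389 and 0 CPM (7.89 ± 2.67, adjusted p = 0.351, edgeR). Ifit1 showed the same arrangement there, with 10.1, 10.7, 15.8 and 3.04 CPM against 0, 0, 0 and 0.568 CPM. All CLP venules exceeded all sham venules in both genes, which held for 2 of 38 tested members (5.26%) and for 174 of all 13530 genes. Igtp in arterioles was the reverse, at 3.01, 1.87, 0 and 0 CPM after CLP against 95.5, 71.4, 42.4 and 93.7 CPM (-5.95 ± 2.61, adjusted p = 0.208). Bst2, which tethers viruses to the cell surface, was at 72.1, 77.7, 51.0 and 47.5 CPM in CLP glomeruli against 39.4, 11.8, 13.1 and 28.9 CPM. In the sums, Trim30a (1.53 ± 0.52, adjusted p = 0.232) and Usp18 (3.99 ± 1.49, adjusted p = 0.275) had unadjusted p-values under 0.05. These genes were picked after their values were seen.

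At 72 h, peritubular capillaries were the 1 compartment with calls: 9 of 31 tested members were lower after CLP (29.0%), beside 20.5% of all genes, and 0 were higher (1.8% of all genes). The 9 were Irf9, Stat2, Ifi35, Oasl2, Irf1, Irf7, Mx2, Ifit3b and Ifih1, with adjusted p-values from 0.0307 for Irf9 to 0.0496 for Ifih1 (edgeR). All 9 had 0 counts in all 4 CLP libraries, and none had counts in all 4 sham libraries. Irf9 was at 7.97, 50.2, 0 and 91.4 CPM after sham, and Mx2 at 0, 48.3, 0 and 0 CPM. Taking 3 counts per library as the floor, Irf9 was at least 118-fold lower, Stat2 at least 78.4-fold lower, and Ifih1, with the smallest bound, at least 24.2-fold lower after CLP. The median log2 fold change of the members was -2.75 with such genes at their bounds (28 members) and -4.76 as fitted, against -1.28 for all genes. These CLP libraries detected 2949 to 5595 genes and 2 to 6 members, against 7137 to 9816 genes and 14 to 24 members in the sham libraries. Endothelial markers summed to 25.9 to 431 CPM against 456 to 823 CPM, and proximal tubule markers to 22819 to 29022 CPM against 55832 to 86655 CPM; the part of these shifts in the members' values was not tested. The calls fell to 0 without CLP mouse 3 or 4, and to 1 with RLE size factors or with no filter on low counts. All 9 genes also lost their calls without CLP mouse 1, and all but Irf9 without CLP mouse 2. A fit to the 8 libraries alone also gave 0, but the 9 genes had too few counts to be tested there. DESeq2 called 12 members and 34.1% of all genes.

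In the other compartments and the sums at 72 h, 0 members passed. Of all genes 0.0137% were higher and 0.0206% lower in glomeruli, 0.0% and 0.0% in arterioles, 0.0148% and 0.0296% in venules, and 0.226% and 0.202% in the sums. At an unadjusted p under 0.05 there were 3 members in glomeruli, 6 in arterioles, 6 in venules and 5 in the sums. These were 7.32%, 16.2%, 15.8% and 11.6% of the members tested, against 10.3%, 17.2%, 12.7% and 14.4% of all genes. DESeq2 called 2, 4, 4 and 4 members in the same order, and 5.9%, 14%, 8.39% and 7.81% of all genes. Cxcl9 in the sums was at 8.97, 0, 0 and 19.4 CPM after sham and at 0 in all 4 CLP sums, the same sign as in whole kidney.

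The pathway around the set was followed in whole kidney. Of 10 interferon genes, 3 were in the table (Ifnb1, Ifng and Ifnk) and none had enough counts to test; Ifng was at 0 to 0.293 CPM after CLP at 4 h and at 0 after sham, and Ifnb1 was at 0 in every operated kidney. Of 6 receptor genes 0 passed at any time by edgeR's test, the smallest adjusted p being 0.148 for Ifngr1 at 24 h. Of 16 signalling genes, Ikbke, a kinase that activates IRF3, was higher at 24 h (6.401 against 2.05 CPM, 1.63 ± 0.38, adjusted p = 0.00658). Of 5 feedback inhibitors, Socs3, which is induced by IL-6 type cytokines and by interferons, was higher at 4 h (52.1 against 5.31 CPM, 3.29 ± 0.51, adjusted p = 0.000307) and at 24 h (3.08 ± 0.62, adjusted p = 0.00262), and Ptpn6 at 72 h (0.57 ± 0.16, adjusted p = 0.0378, edgeR). Of 43 further interferon-induced genes tested, 3, 5 and 4 were higher at 4, 24 and 72 h (1.69%, 3.04% and 1.74% of all genes) and 0 lower (0.556%, 2.24% and 2.15%). They included Gbp5 at 4 h (10.9 against 1.69 CPM, 2.68 ± 0.47, adjusted p = 0.000479), Ifi204 at 4 h (1.46 ± 0.27, adjusted p = 0.00114) and Lgals3bp at 24 h (175 against 64.2 CPM, 1.45 ± 0.24, adjusted p = 0.000198, edgeR).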

How the data were processed

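The files held counts per gene for 140 libraries, deposited by the authors as 1 table. Per the submitters' processing notes, reads were handled with STAR 2.7, HTSeq 0.13, featureCounts, SAMtools 1.9, MultiQC 1.7 and FastQC 0.11.8 on the builds GRCm38.p6 and GRCm39; which build or counter made the table is not given in the sources used here. Its header put the healthy mice at 4 h; the labels' 0 h was used.

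Counts were scaled by TMM and tested in R 4.3.3 with edgeR 4.0.16 (robust quasi-likelihood fit on the 28 libraries of a compartment, filterByExpr, Benjamini-Hochberg adjustment over all genes tested). SE is the log2 fold change divided by the root of F. Log2 CPM used a prior count of 2. The test was tested on simulated data. Alternatives were DESeq2 1.42.0, RLE size factors, no filter, fewer libraries, a replicate block and leaving out each mouse. Replicate numbers belong to different mice, and same-numbered CLP and sham libraries did not all deviate together, so they were not treated as pairs. The labels do not say whether litters or days were shared.

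The members and the lists were chosen with earlier results of these data known. Named were passing members where 6 or fewer passed, otherwise the largest and smallest change in each role, and 10 genes in every compartment; other genes named in the compartments were chosen after their values were seen.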

Additional observations from a re-analysis of the deposited data

Results flagged for a closer look

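In 6 of 71 checks, the highest or lowest of 4 libraries stood apart by Dixon's test. The checks covered the mean level of the set in each group and compartment. They also covered the CPM of each member called between CLP and sham in whole kidney, in both groups. A single check gives about 1 in 20 by chance. The gene checks reused the same libraries and took only called members, so 6 of 71 cannot be set against that share. In whole kidney after CLP at 4 h, mouse 1 was apart for Cxcl10 (47.0 CPM), Iigp1 (116 CPM) and Gbp2 (30.6 CPM). Mouse 4 was the lowest for Irf9 in both groups at 4 h, with 28 CPM after CLP and 16.2 CPM after sham. In healthy venules, 1 library had a mean log2 CPM over the 43 genes of 1.96, below the other libraries of its group.

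The CLP effect on Rsad2 in whole kidney differed between 24 and 4 h by a log2 fold change of -1.39 (adjusted p = 0.0293, edgeR), from above sham at 4 h to below sham at 24 h in the group means. This call was lost with no filter on low counts (adjusted p = 0.0687, edgeR).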

How the results depend on the processing

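In whole kidney at 4 h, 14 members were called with RLE size factors, 17 with no filter on low counts and 15 with DESeq2. There were 12 in the 8 libraries alone and 13 in the libraries of 0 and 4 h. In these fits, in order, 257, 305, 337, 286 and 302 of all genes were higher, against 252 in the main fit. Leaving out a mouse gave 6 to 16 members, and 166 to 240 of all genes were higher. At 24 h the count of members was 1 in the 8 libraries alone and 1 to 4 without a mouse. It was 6 with DESeq2, beside 6.68% of all genes. At 72 h it was 0 in the 8 libraries alone and in the libraries of 24 and 72 h, and 0 to 1 without a mouse. DESeq2 gave 2 then, beside 4.88% of all genes. The comparison of 72 with 24 h gave 1 with no filter. In that of 24 with 4 h, Rsad2 lost its call with no filter (adjusted p = 0.0687, edgeR). Apart from DESeq2, shares of all genes in the alternative fits at 24 and 72 h and of these comparisons are not given here.

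The replicate block, fitted although the numbers mark different mice, gave 14, 3 and 1 calls in whole kidney at 4, 24 and 72 h. The 3 at 24 h did not include Irf7. That gene also lost its call with no filter, in the 8 libraries alone and in the libraries of 24 and 72 h. Residuals of mice with 1 number correlated above 0.1 in 3 of 4 pairs at 24 h and 2 of 4 at 72 h in whole kidney (up to 0.468 and 0.347), and in none elsewhere.

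The 9 calls in peritubular capillaries at 72 h fell to 1 each with RLE size factors, with no filter and with the replicate block. They fell to 0 in the libraries of 24 and 72 h, where Mx2 and Ifi35 had too few counts to test. The 8 libraries alone gave 0, but none of the 9 genes had enough counts to be tested there. Leaving out a mouse gave 0 to 6. Against 0 in the main fits, glomeruli at 4 h gave 3 in the 8 libraries alone and 2 in the libraries of 0 and 4 h. At 4 h the summed counts gave 2 in each of these fits. The sums gave 1 at 24 h in the 8 libraries alone and 1 at 72 h with no filter. The shares of all genes called in these fits are not given here, so whether the counts exceed them is not known. DESeq2 gave 2, 1 and 2 at 4, 24 and 72 h in glomeruli, 5 and 4 at 24 and 72 h in arterioles, 2, 5 and 4 at 4, 24 and 72 h in venules, 7 at 24 h in peritubular capillaries, and 3, 2 and 4 at 4, 24 and 72 h in the sums, beside 0.739% to 15.6% of all genes over these and the other microdissected comparisons except peritubular capillaries at 72 h. Healthy compartments gave 4 with RLE size factors and 1 with no filter, against 2. The cause of these differences was not tested. The libraries by time were chosen after seeing the data. In glomeruli at 4 h, 4 of 99 genes simulated with a 4-fold change were recovered.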
